A study of Homo sapiens with 16 samples.

Results

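The genes of glycolysis, the non-oxidative and oxidative pentose phosphate branch and the transport of glucose and lactate were followed in MCF10HER2 cells for 45 h of HER2 kinase inhibition. The module holds 32 of the 18190 gene symbols on the array, chosen by name for their place in these pathways. All 32 were found by gene symbol on the array, PKM2 standing there for the gene now called PKM. When several probes carried the symbol, as for 6 genes, the detected probe with the highest mean signal was taken. Only probes detected on at least 3 arrays (detection p under 0.05 against the negative controls) entered the tests, 12321 of 20589 probes and 30 of the 32 genes. The other two were SLC16A1, a proton-coupled lactate and pyruvate carrier whose probe was detected on 0 of 16 arrays, and RPE, ribulose phosphate epimerase, whose better probe was detected on 1 array. That RPE probe had a mean intensity of 517, against 259 for the PFKFB3 probe, which was detected on 16 arrays. The detection p-values of RPE thus did not follow its signal, and the reason was not tested.

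MCF10HER2 (MCF-10HER-2) is a human breast epithelial line made from nontransformed MCF10A cells by transduction to over express HER2, the receptor tyrosine kinase encoded by ERBB2. All cultures grew in serum-free Ham's F-12 medium with EGF and hydrocortisone and without insulin, so the growth factor was present in every sample, treated or not. The untreated group is the culture taken at 0 h, and each of the other 15 groups is a parallel culture given 1 µM CP724,714, a compound that blocks the kinase of HER2, and taken at 3, 6, 9 h and so on to 45 h. Each time point is 1 culture on 1 array with no replicate, and the medium was changed when the inhibitor was added. The inhibitor, time in culture and the new medium cannot be told apart, because no untreated culture later than 0 h was analysed here.

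Glucose enters epithelial cells through carriers of the SLC2A family, is trapped by hexokinase and is carried down glycolysis to pyruvate. Pyruvate is either reduced to lactate, which leaves through SLC16A carriers, or passed to the pyruvate dehydrogenase complex in mitochondria. The pentose phosphate pathway branches off at glucose phosphate, makes NADPH in its oxidative arm and ribose for nucleotides, and returns sugars to glycolysis through transketolase and transaldolase. Many glycolytic genes carry recognition sites for HIF and MYC, which bind sequences with the core ACGTG or CACGTG.

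The arrays detected between 10363 and 11436 probes. The 9 h and 18 h arrays were dim, with upper quartile intensities of 397 and 418 against 553 to 804 on the rest, and the background lay at 136 to 149 up to 21 h and at 164 to 174 from 24 h, so that the course crosses an apparent change of array batch at 24 h. The epithelial keratin genes KRT5, KRT17, KRT8, KRT18 and KRT19 and the integrin gene ITGB4 were detected on all 16 arrays, 6 of 8 epithelial markers on the array, while KRT14 was detected on 1. Of the fibroblast markers COL1A1, COL1A2 and LUM were detected on 0 arrays, as were CD3D of leukocytes and CDH5 and VWF of endothelium, and DCN, CD14, CD68 and PECAM1 on 16. The better ERBB2 probe was detected on 7 of 16 arrays, and its 2 probes together stood 38.5 to 156 intensity units above background, and these probes do not show the over expression that the labels state. In bulk RNA a change in the cells and a change in their RNA content cannot be told apart.

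The promoters of the genes that fell most late in the course are shown first, because the members that moved together lay in the same stretch of the pathway. These are the 250 bases before the RefSeq start (GRCh38.p14, written 5′ to 3′ on the strand of the gene) of ALDOC (chr17:28576896-28577145, minus strand), PGAM1 (chr10:97427568-97427817, plus strand), PGK1 (chrX:78103998-78104247, plus strand) and LDHA (chr11:18394313-18394562, plus strand, the first of 2 starts). Capitals mark ACGTG on either strand, which includes CACGTG, a sequence that holds ACGTG on both strands.
ALDOC: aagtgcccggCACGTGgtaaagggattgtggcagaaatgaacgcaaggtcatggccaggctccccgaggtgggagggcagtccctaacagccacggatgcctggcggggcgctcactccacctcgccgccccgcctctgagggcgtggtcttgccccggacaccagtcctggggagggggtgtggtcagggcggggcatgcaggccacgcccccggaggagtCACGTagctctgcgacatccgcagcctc
PGAM1: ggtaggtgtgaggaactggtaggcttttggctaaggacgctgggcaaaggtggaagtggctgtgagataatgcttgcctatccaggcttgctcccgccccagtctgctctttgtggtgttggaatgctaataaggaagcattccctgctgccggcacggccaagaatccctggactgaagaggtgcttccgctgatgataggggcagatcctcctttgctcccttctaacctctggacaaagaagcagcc
PGK1: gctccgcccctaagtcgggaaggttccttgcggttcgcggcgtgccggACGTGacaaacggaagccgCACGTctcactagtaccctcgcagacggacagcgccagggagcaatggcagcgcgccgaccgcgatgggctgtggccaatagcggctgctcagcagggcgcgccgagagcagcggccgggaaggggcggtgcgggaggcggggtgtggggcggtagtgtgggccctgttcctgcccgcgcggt
LDHA: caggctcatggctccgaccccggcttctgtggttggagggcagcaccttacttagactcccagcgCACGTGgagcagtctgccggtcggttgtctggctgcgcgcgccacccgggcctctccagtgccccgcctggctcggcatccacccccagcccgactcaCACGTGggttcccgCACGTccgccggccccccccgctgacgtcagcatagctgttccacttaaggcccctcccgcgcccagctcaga

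LDHA held 3 marked stretches, 2 of them CACGTG, ALDOC and PGK1 held 2 each, and PGAM1 held 0. The window of the second LDHA start, not printed, held 0. Over the 29 genes of the module with a promoter in the RefSeq table, ACGTG on either strand was found in at least 1 window of 8 of the 11 genes (72.7%) that were lower at 36 to 45 h (described below) and of 7 of the other 18 genes (38.9%), against 21.7% of all 27305 genes. Counted by window it was 11 of 16 (68.8%) and 7 of 38 (18.4%), against 18.5% of all 35116 windows of this length, and genes with many starts weigh more in the window shares. The longer CACGTG was found in 5 of 11 (45.5%) and 2 of 18 genes (11.1%), against 7.73% of all genes. Several windows of a gene can overlap, the letters are no evidence of a factor's binding, and no test was made of these shares. The grouping rests on a comparison chosen after the values were seen, and the other 18 genes include RPE, which was not tested.

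The module did not move as a whole. Of the genes lower at 36 to 45 h (described below), GPI, ALDOA, ALDOC, TPI1, PGK1, ENO1 and LDHA stepped up between 9 and 12 h. They were still above their 9 h level at 24 h. PGAM1 also stepped up at 12 h but lay below its 9 h level at 24 h. All these genes and GAPDH stepped down between 33 and 36 h. PFKP, PFKM and PDHB rose within 12 h and stayed above their 0 to 9 h means, SLC2A1 and PGD fell within 15 h and stayed low, and most of the pentose branch was not called by any test. By a moderated F-test of a smooth curve in time (limma, natural cubic spline with 4 degrees of freedom), 21 of 30 genes varied with time (adjusted p under 0.05), beside 41.9% of all tested probes.

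**Figure D1:**
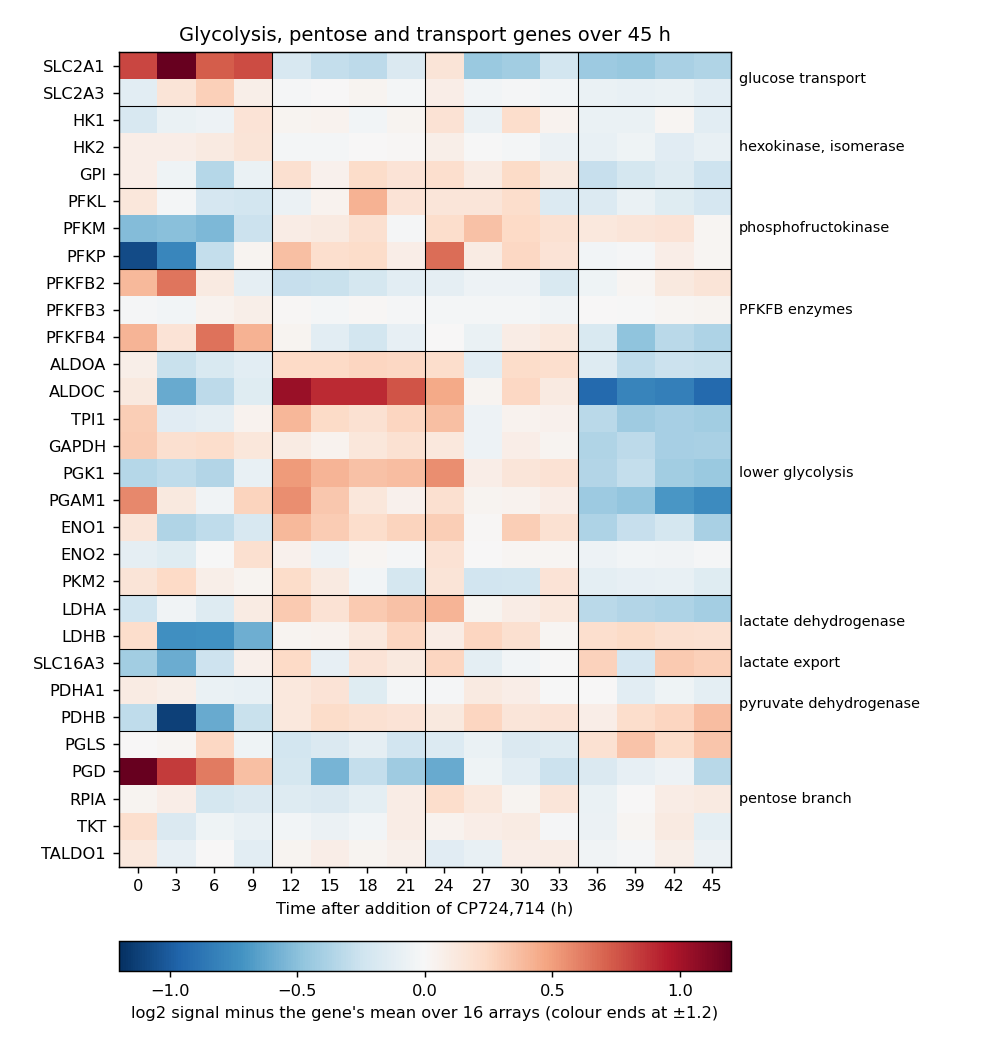
Log2 signal of the 30 tested genes on each of the 16 arrays (columns, hours after addition of CP724,714), each minus its own mean over the arrays, with red above and blue below that mean and the colour ending at ±1.2. Vertical lines separate the sets of 4 arrays, and ALDOA, ALDOC, PGK1 and ENO1 turn red at 12 h, 7 of 9 lower glycolysis genes, all but ENO2 and PKM2, are lower at 36 to 45 h than at 24 to 33 h, and SLC2A1 and PGD run from red to blue.

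Changes before 24 h and after 33 h were measured with a line broken at these times. From 0 to 24 h, 7 genes rose, beside 13.7% of all probes, and 4 fell, beside 14.7% of all probes. The genes that rose were PFKM, PFKP, ALDOC, PGK1, LDHA, SLC16A3 and PDHB, and those that fell were SLC2A1, PFKFB2, PFKFB4 and PGD. Under median scaling 12 genes rose and 2 fell, and without normalization 4 rose and 1 fell, so the count depends on how the arrays were brought to a common scale. The share of all probes was not counted for this test in these settings, so these counts cannot be set against the whole array. From 33 to 45 h, 0 genes passed in either direction, as did 0% of all probes. At an unadjusted p under 0.05 (limma), 7 genes fell and 1 rose, beside 2.52% and 3.99% of all probes. The slope after 33 h lay below the slope before 24 h in 0 genes after adjustment, beside 0.00812% of all probes, and in 11 genes at an unadjusted p under 0.05, beside 8.33% of all probes. It lay above in 4 genes at an unadjusted p under 0.05, beside 8.84% of all probes.

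Much of the movement of lower glycolysis lay in single steps between neighbouring arrays. The 9 genes of lower glycolysis (ALDOA, ALDOC, TPI1, GAPDH, PGK1, PGAM1, ENO1, ENO2 and PKM2) had a median step of -0.33 on the log2 scale from 0 to 3 h, with 7 of 9 lower. From 9 to 12 h their median step was 0.36, with 7 of 9 higher. From 24 to 27 h it was -0.34 with 9 of 9 lower, from 27 to 30 h it was 0.10 with 9 of 9 higher, and from 33 to 36 h it was -0.39 with 9 of 9 lower. The 5 tested pentose genes had median steps of 0.03 from 9 to 12 h, 0.05 from 24 to 27 h and -0.05 from 33 to 36 h. The whole array moved at some of these times: the root mean square step of all tested probes was 0.31, 0.29, 0.23 and 0.33 at 3, 6, 9 and 12 h, between 0.09 and 0.17 from 15 to 33 h, and 0.21 at 36 h. Its part in the steps of the module was not tested.

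**Figure D2:**
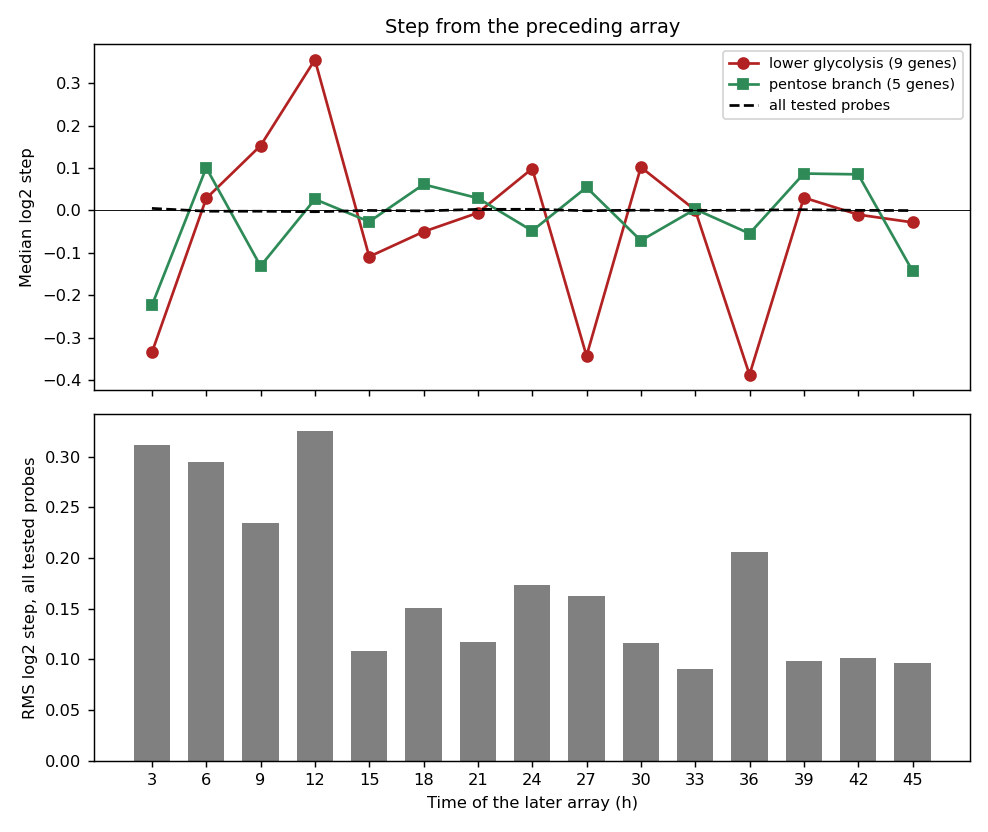
Upper panel, median log2 step from the preceding array for the 9 lower glycolysis genes, the 5 pentose genes and all 12321 tested probes, by the time of the later array in hours. Lower panel, root mean square step of all tested probes as bars: the lower glycolysis median stands at 0.36 at 12 h, -0.34 at 27 h and -0.39 at 36 h.

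Because of the steps, the means of sets of 4 successive arrays (0 to 9, 12 to 21, 24 to 33 and 36 to 45 h) were compared as well, a choice made after the steps were seen. The spread in these tests is that among successive time points within the sets, so a drift within a set counts as error. The first set joins the untreated array to the treated 3, 6 and 9 h arrays. A difference from it is therefore not a difference from untreated cells. At 12 to 21 h, 11 genes were higher than at 0 to 9 h, beside 17.5% of all probes, and 6 were lower, beside 18% of all probes. With median scaling the split was 15 higher and 2 lower, beside 29.3% and 4.98% of all probes, and the called early differences above 0 were larger, among them 0.65 for GPI, 0.74 for ALDOA, 1.06 for PGK1, 0.75 for ENO1, 0.69 for LDHA, 0.98 for LDHB, 0.81 for SLC16A3 and 1.16 for PFKP. From 12 to 21 h to 24 to 33 h 1 gene was lower, ALDOC, beside 0.114% of all probes, and 0 were higher, beside 0.0568% of all probes (limma, adjusted). This comparison crosses the apparent change of array batch at 24 h. At 36 to 45 h, 11 genes were lower than at 24 to 33 h, beside 5.84% of all probes, and 1 was higher, beside 6.4% of all probes. The 11 lower genes became 4 with median scaling, beside 2.73% of all probes, and 5 without normalization, beside 1.4% of all probes. Among the 30 genes, 6 were both higher at 12 to 21 h and lower at 36 to 45 h (GPI, ALDOA, ALDOC, PGK1, ENO1 and LDHA), beside 3.29% of all probes.

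By the study's criterion of a 1.7-fold change at any time, taken here from the 0 h array, 10 genes changed, beside 19.5% of all probes. PFKM, PFKP and PGK1 were 1.7-fold higher at some time, SLC2A1, PFKFB4, PGAM1, LDHB, PDHB and PGD were lower, and ALDOC was both. LDHB and PDHB met it only on arrays from 3 to 9 h. The count was 19 under median scaling and 25 without normalization, and it rests on 1 baseline array with no error term. For this criterion the share of all probes was counted in the main run only.

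Of the carriers that bring glucose in, SLC2A1 was low for most of the course. It encodes GLUT1, the main glucose carrier of epithelial cells in culture. Its probe (ILMN_421) read 9.95, 10.34, 9.87 and 9.92 on the log2 scale at 0, 3, 6 and 9 h, then 8.95, 8.86, 8.83 and 8.97 up to 21 h, 9.30, 8.70, 8.72 and 8.92 up to 33 h, and 8.71, 8.69, 8.76 and 8.78 up to 45 h. The highest value stood at 3 h, the drop came between the 9 h and 12 h arrays, and no later array reached the first 4. The mean at 12 to 21 h was 1.12 lower than at 0 to 9 h on the log2 scale (SE 0.12, 4 arrays against 4, limma adjusted p = 5.75e-06), a ratio of 0.460. Under median scaling that difference was -0.70. From 0 to 24 h the broken line gave -1.35 (SE 0.27, limma adjusted p = 0.00184), which was -0.78 under median scaling and lost its call without normalization (limma adjusted p = 0.0663). Within the 0 to 21 h arrays alone a straight line gave -1.53 over 21 h (SE 0.31, limma adjusted p = 0.0177). From 24 to 33 h to 36 to 45 h it differed by -0.18 (SE 0.12, limma adjusted p = 0.416), with overlapping values. SLC2A3, the GLUT3 carrier, was detected on 11 arrays, those from 3 to 33 h, and read 7.90 to 8.32, close to the 7.89 to 7.95 of the undetected SLC16A1 probe. It was highest at 6 h and was not called by the set comparisons, although its values at 36 to 45 h lay below those at 24 to 33 h without overlap and a straight line over the 24 to 45 h arrays fell by 0.16 (SE 0.03, limma adjusted p = 0.000772).

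Of the enzymes that trap and isomerise glucose, GPI moved, HK1 moved little, and the size of the HK2 differences depended on the background correction. GPI, glucose phosphate isomerase, read 12.53, 12.40, 12.12 and 12.37 at 0 to 9 h, 12.65, 12.51, 12.67 and 12.61 at 12 to 21 h, 12.65, 12.55, 12.68 and 12.57 at 24 to 33 h and 12.18, 12.24, 12.30 and 12.21 at 36 to 45 h. Its last 4 values lay below all 8 before them, and its 0 h value lay within the range of the 12 to 21 h arrays. The early difference was 0.25 (SE 0.08, limma adjusted p = 0.0249) and the late difference was -0.38 (SE 0.08, limma adjusted p = 0.00656), a 1.30-fold lower level. The late call was lost under median scaling and without normalization, and the early call in 8 alternatives, among them the fit to the 0 to 21 h arrays alone and the fits without the 6, 12, 18 or 21 h array. HK1, the housekeeping hexokinase, kept between 12.76 and 13.18 on all arrays and was not called by any test. HK2, the inducible hexokinase, was dim at 7.98 to 8.27 and was 0.11 lower at 12 to 21 h (SE 0.03, limma adjusted p = 0.00487) and 0.09 lower again at 36 to 45 h (SE 0.03, limma adjusted p = 0.0452). The first HK2 call was lost under median scaling and without normalization, the second in 13 of 26 alternatives, and the late values overlapped between the sets. With background corrected from the signals alone (offset 50) the HK2 differences were -0.36 and -0.37, and with no correction -0.27 and -0.27. In the first of these settings the late difference of GPI was -0.36.

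Of the phosphofructokinases, which commit sugar to glycolysis, PFKP and PFKM rose early. PFKP, the platelet type, read 11.57, 11.86, 12.36 and 12.68 at 0 to 9 h, 13.01, 12.85, 12.86 and 12.72 at 12 to 21 h, 13.31, 12.74, 12.89 and 12.81 at 24 to 33 h and 12.61, 12.63, 12.73 and 12.67 at 36 to 45 h. It climbed on each array up to 12 h, was highest at 24 h and was 2.14-fold above the 0 h array at 45 h. The change from 0 to 24 h was 1.33 (SE 0.21, limma adjusted p = 0.000538), past the threshold under every alternative run (0.68 to 1.78). PFKM, the muscle type, read 8.23, 8.25, 8.21 and 8.50 at 0 to 9 h and 8.84, 8.86, 8.95 and 8.74 at 12 to 21 h. It then stayed between 8.78 and 9.11 to the end. Its change from 0 to 24 h was 0.86 (SE 0.13, limma adjusted p = 0.000408), a call lost without normalization. Neither was called lower at 36 to 45 h, with differences of -0.28 (SE 0.18, limma adjusted p = 0.362) for PFKP and -0.13 (SE 0.08, limma adjusted p = 0.320) for PFKM, although the values of each did not overlap between the sets. A straight line over the 24 to 45 h arrays gave -0.47 for PFKP (SE 0.14, limma adjusted p = 0.0275) and -0.21 for PFKM (SE 0.10, limma adjusted p = 0.130), so that only PFKP passed this test. PFKL, the liver type, ranged from 9.00 to 9.64 with its highest value on the dim 18 h array and was called by the spline (limma adjusted p = 0.0270) and by a falling line over the 24 to 45 h arrays (limma adjusted p = 0.0223), not by the set comparisons.

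The bifunctional PFKFB enzymes make and break the sugar bisphosphate that activates phosphofructokinase, and those that moved early moved the other way. PFKFB2 read 8.96, 9.20, 8.68 and 8.45 at 0 to 9 h, 8.29, 8.29, 8.36 and 8.44 at 12 to 21 h, 8.46, 8.51, 8.51 and 8.38 at 24 to 33 h and 8.51, 8.59, 8.68 and 8.72 at 36 to 45 h. It fell from 3 to 12 h and its 42 h and 45 h values were back at the 6 h level. Over the first 24 h it changed by -0.60 (SE 0.17, limma adjusted p = 0.0138), lost under median scaling (-0.26), without normalization, with array weights and without the 3 h array. Its second tested probe, detected on 6 arrays, ranged from 7.92 to 7.99. PFKFB4 read 9.69, 9.45, 9.93 and 9.70 at 0 to 9 h, 9.32, 9.16, 9.07 and 9.19 at 12 to 21 h, 9.29, 9.20, 9.38 and 9.41 at 24 to 33 h and 9.10, 8.80, 8.96 and 8.91 at 36 to 45 h. It came down in 2 stages, by 0.51 at 12 to 21 h (SE 0.10, limma adjusted p = 0.00107) and by 0.38 at 36 to 45 h (SE 0.10, limma adjusted p = 0.0236). Median scaling or no normalization ended both PFKFB4 calls, and the second was also lost without the 24, 30, 33, 39, 42 or 45 h array. PFKFB3 was dim, at 8.12 or less on every array, and was not called.

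Lower glycolysis, from aldolase to pyruvate kinase, carried most of the late fall: 7 of its 9 genes were lower at 36 to 45 h, and 4 of 9 were higher at 12 to 21 h. The median late difference over the 9 was -0.49, against -0.12 over the 30 genes and 0.00 over all probes, and the median early difference was 0.24, against 0.05 and -0.01. In 8 of the 9, all but PKM2, the 4 values at 36 to 45 h lay below the 4 at 24 to 33 h without overlap, beside 15.4% of all probes. Over the module 14 genes did so, and 3 lay above without overlap, beside 15.3% of all probes.

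ALDOC, the brain-type aldolase, moved furthest. It read 9.94, 9.22, 9.50 and 9.68 at 0 to 9 h, 10.86, 10.71, 10.71 and 10.58 at 12 to 21 h, 10.27, 9.85, 10.07 and 9.93 at 24 to 33 h, and 8.88, 9.02, 9.00 and 8.88 at 36 to 45 h. Each set was separate from the next, and the 0 h value lay within the range of the 24 to 33 h arrays. It was 2.19-fold higher at 12 to 21 h (log2 difference 1.13, SE 0.13, limma adjusted p = 9.8e-06), lower at 24 to 33 h (-0.68, SE 0.13, limma adjusted p = 0.0469), and 2.12-fold lower again at 36 to 45 h (-1.08, SE 0.13, limma adjusted p = 6.24e-05). The middle comparison crosses the apparent change of array batch at 24 h, so time and batch cannot be told apart there. No alternative was run on it. The broken-line change of ALDOC from 0 to 24 h was 1.06 (SE 0.36, limma adjusted p = 0.0380) and was lost in 9 alternatives, among them the fits without the 3, 6, 18, 21 or 30 h array. The 12 to 21 h and 36 to 45 h calls of ALDOC held under all 26 alternatives. ALDOA, the main aldolase of most tissues, read 14.33, 13.99, 14.08 and 14.13 at 0 to 9 h, 14.50, 14.50, 14.52 and 14.51 at 12 to 21 h, 14.47, 14.13, 14.48 and 14.46 at 24 to 33 h and 14.10, 13.95, 14.00 and 13.99 at 36 to 45 h. The 27 h array stood low between neighbours. ALDOA was 0.37 higher at 12 to 21 h (SE 0.08, limma adjusted p = 0.00124) and 0.38 lower at 36 to 45 h (SE 0.08, limma adjusted p = 0.00441). Both ALDOA calls were lost without normalization, and the late one under median scaling.

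TPI1, triose phosphate isomerase, began at 14.30, dropped to 13.86, 13.89 and 14.05 at 3 to 9 h, read 14.40, 14.23, 14.18 and 14.26 at 12 to 21 h, 14.36, 13.94, 14.05 and 14.05 at 24 to 33 h, and 13.68, 13.57, 13.60 and 13.58 at 36 to 45 h. Its late values lay below every earlier array. The late difference was -0.49 (SE 0.09, limma adjusted p = 0.00259), lost under median scaling, and the early one was 0.24 (SE 0.09, limma adjusted p = 0.0509). GAPDH, which makes the first NADH of the pathway, had no early step: it read 14.74, 14.62, 14.65 and 14.57 at 0 to 9 h, 14.53, 14.47, 14.57 and 14.61 at 12 to 21 h, and 14.56, 14.37, 14.51 and 14.47 at 24 to 33 h. It then read 14.08, 14.12, 14.04 and 14.05 at 36 to 45 h, 1.33-fold lower than at 24 to 33 h (log2 difference -0.41, SE 0.05, limma adjusted p = 8.92e-05). At 45 h GAPDH was 1.62-fold below the untreated array, so a gene often used as a reference in transcript assays was not level over this course. The call was lost under median scaling and without normalization.

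PGK1, phosphoglycerate kinase, which makes the first ATP of glycolysis, read 12.63, 12.67, 12.62 and 12.88 at 0 to 9 h, 13.48, 13.38, 13.32 and 13.34 at 12 to 21 h, 13.53, 13.05, 13.12 and 13.14 at 24 to 33 h, and 12.62, 12.68, 12.55 and 12.52 at 36 to 45 h. The last set had returned to the level of the first 3 arrays. The broken-line change from 0 to 24 h was 0.91 (SE 0.17, limma adjusted p = 0.00160), a call lost without normalization and with 1 break at 33 h (0.32). PGK1 was 1.60-fold higher at 12 to 21 h (log2 difference 0.68, SE 0.09, limma adjusted p = 4.81e-05) and 1.53-fold lower at 36 to 45 h (-0.62, SE 0.09, limma adjusted p = 0.000465). Both set calls of PGK1 held under all 26 alternatives. PGAM1, phosphoglycerate mutase, went down without the plateau: it read 10.49, 10.03, 9.87 and 10.18 at 0 to 9 h, 10.47, 10.23, 10.05 and 9.96 at 12 to 21 h, 10.10, 9.94, 9.95 and 9.99 at 24 to 33 h, and 9.47, 9.44, 9.21 and 9.16 at 36 to 45 h. The untreated array stood 2.52-fold above the 45 h array. The late difference was -0.68 (SE 0.13, limma adjusted p = 0.00337) and was lost without normalization.

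ENO1, the ubiquitous enolase, read 14.95, 14.45, 14.50 and 14.61 at 0 to 9 h, 15.20, 15.11, 15.02 and 15.08 at 12 to 21 h, 14.83 to 15.10 at 24 to 33 h, and 14.44, 14.53, 14.60 and 14.42 at 36 to 45 h. It was 0.47 higher at 12 to 21 h (SE 0.09, limma adjusted p = 0.000583) and 0.51 lower at 36 to 45 h (SE 0.09, limma adjusted p = 0.00145), the latter lost under median scaling. ENO2, the neuronal enolase, was dim at 7.93 to 8.27 and was not called by the sets. PKM2, pyruvate kinase, ranged from 10.01 to 10.48 with a late difference of -0.08 (SE 0.11, limma adjusted p = 0.730). Its other tested probe (ILMN_11776) ran from 9.39 to 9.98 with its highest value at 0 h, so no direction of PKM2 was shown.

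**Figure D3:**
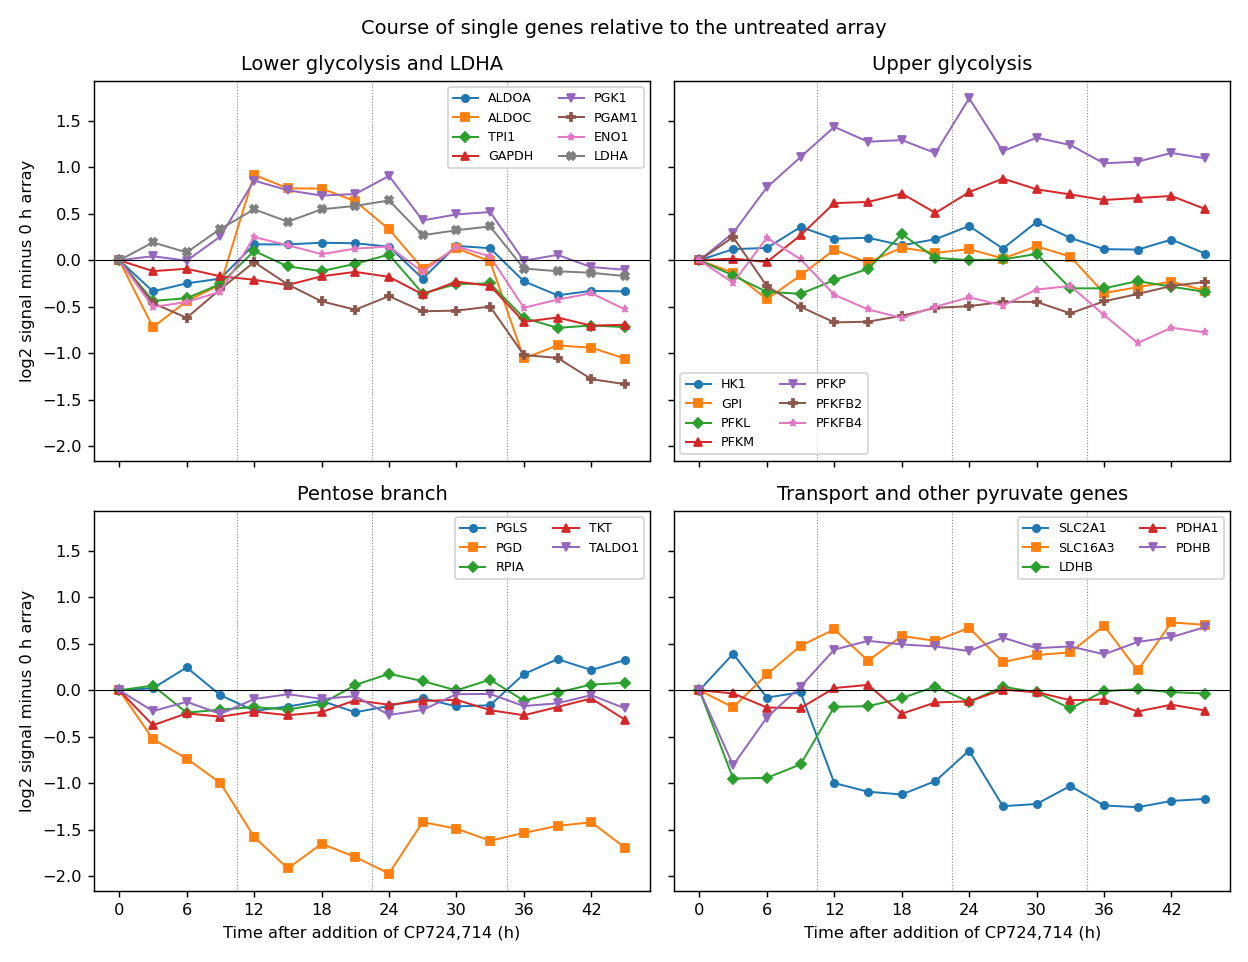
Log2 signal minus that of the untreated 0 h array, by hours after addition of CP724,714, for single genes in 4 panels; each point is 1 array, and dotted lines separate the sets of 4 arrays. GPI, ALDOA, ALDOC, TPI1, PGK1, PGAM1, ENO1 and LDHA step up at 12 h, and these with GAPDH step down at 36 h. PFKP and PFKM stay up, and SLC2A1 and PGD stay down.

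At the pyruvate end the lactate dehydrogenases parted. LDHA, whose enzyme favours the reduction of pyruvate to lactate, read 14.93, 15.13, 15.02 and 15.27 at 0 to 9 h, 15.48, 15.35, 15.48 and 15.52 at 12 to 21 h, 15.58, 15.20, 15.26 and 15.30 at 24 to 33 h, and 14.84, 14.82, 14.80 and 14.76 at 36 to 45 h. It was highest at 24 h, and its last 4 values lay below every earlier array. The change from 0 to 24 h was 0.56 (SE 0.11, limma adjusted p = 0.00178), a call lost with a single break at 33 h. The late difference was -0.53, 1.44-fold lower (SE 0.07, limma adjusted p = 0.000242), and held under all 26 alternatives. LDHA reached 76.2% of the highest intensity on an array and ranked 63 to 128 among the probes, and the table holds no saturation flag, so compression at the top of the scale was not tested. LDHB, which favours lactate as substrate, read 12.90 at 0 h, 11.95, 11.96 and 12.11 at 3 to 9 h, and 12.71 to 12.95 from 12 h on. Its difference at 12 to 21 h was 0.57 (SE 0.15, limma adjusted p = 0.00683), with the 0 h value inside the range of the later arrays, and the call was lost in the fit to the 0 to 21 h arrays alone (limma adjusted p = 0.0591). Its late difference was 0.06 (SE 0.15, limma adjusted p = 0.849).

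SLC16A3, the lactate exporter MCT4, read 11.94, 11.76, 12.11 and 12.42 at 0 to 9 h, 12.59, 12.26, 12.52 and 12.47 at 12 to 21 h, 12.61, 12.24, 12.32 and 12.35 at 24 to 33 h and 12.63, 12.15, 12.67 and 12.64 at 36 to 45 h. It was up by 12 h and high again in 3 of the last 4 arrays, with the 39 h array low. It changed by 0.63 from 0 to 24 h (SE 0.19, limma adjusted p = 0.0196), a call lost in 7 alternatives, among them the fits without the 0 h or 3 h array. PDHB, the beta subunit of the pyruvate dehydrogenase component that decarboxylates pyruvate, read 12.14, 11.33, 11.84 and 12.18 at 0 to 9 h and 12.52 to 12.82 on all later arrays. Its lowest value stood at 3 h and its highest at 45 h. The broken line gave 1.01 from 0 to 24 h (SE 0.22, limma adjusted p = 0.00331), past the threshold under every alternative run. PDHA1, the alpha subunit of the same component, kept between 12.17 and 12.48 and was not called.

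The pentose branch did not follow lower glycolysis. PGD, phosphogluconate dehydrogenase of the oxidative arm, which makes NADPH, read 11.58, 11.06, 10.85 and 10.58 at 0 to 9 h, 10.00, 9.66, 9.93 and 9.79 at 12 to 21 h, 9.61, 10.16, 10.09 and 9.96 at 24 to 33 h and 10.05, 10.12, 10.16 and 9.89 at 36 to 45 h. It fell on each of the arrays up to 15 h and stayed low, and at 45 h it was 3.23-fold below the untreated array. The change from 0 to 24 h was -1.75 (SE 0.24, limma adjusted p = 0.000230), the largest in size of the 30 genes, and passed the threshold under every alternative run (-2.12 to -0.92). The difference at 36 to 45 h was 0.10 (SE 0.17, limma adjusted p = 0.785). PGLS, phosphogluconolactonase of the same arm, read 11.97, 11.99, 12.22 and 11.92 at 0 to 9 h, 11.75, 11.80, 11.86 and 11.73 at 12 to 21 h, 11.80, 11.88, 11.80 and 11.81 at 24 to 33 h and 12.14, 12.31, 12.19 and 12.29 at 36 to 45 h. It was the only gene of the 30 called higher at 36 to 45 h (0.41, SE 0.08, limma adjusted p = 0.00304), and that call was lost under median scaling and without normalization. Its difference at 12 to 21 h of -0.24 (SE 0.08, limma adjusted p = 0.0269) turned to 0.17 under median scaling.

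The non-oxidative genes were close to level. RPIA, ribose phosphate isomerase, ranged from 9.37 to 9.79, TKT, transketolase, from 13.92 to 14.29, and TALDO1, transaldolase, from 13.18 to 13.44. None of these passed the spline, the broken line or the set tests, with late differences of -0.10 (SE 0.09), -0.07 (SE 0.07) and 0.00 (SE 0.07). Over the 5 tested pentose genes the median difference was -0.02 at 12 to 21 h and 0.00 at 36 to 45 h, where lower glycolysis had 0.24 and -0.49. The transporters SLC2A1, SLC2A3 and SLC16A3 had late differences of -0.18, -0.09 and 0.14, and 0 of 3 was called by limma. These groups were compared by their counts and medians and not by a test.

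**Figure D4:**
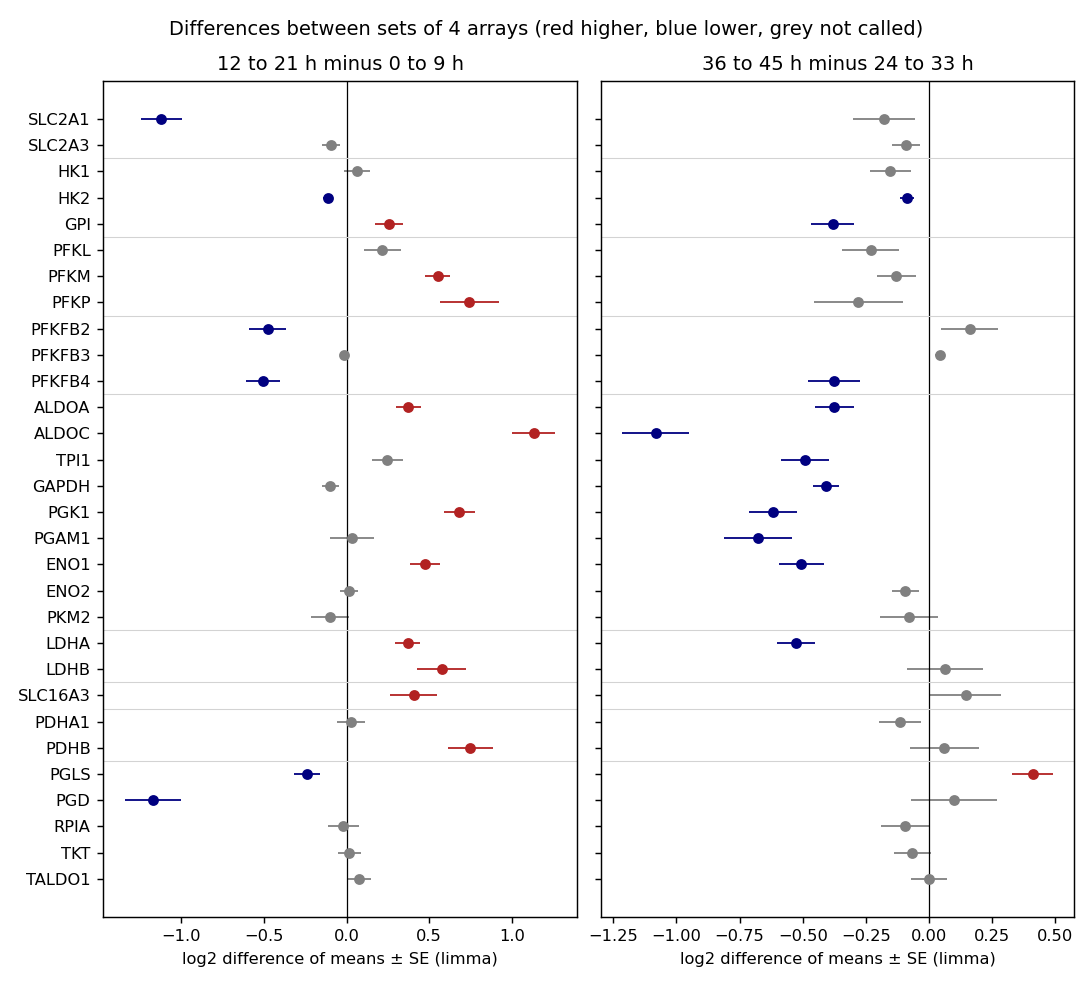
Log2 difference between means of 4 arrays with its limma SE for the 30 genes, 12 to 21 h minus 0 to 9 h on the left and 36 to 45 h minus 24 to 33 h on the right; red was called higher, blue lower, and grey was not called at an adjusted p under 0.05. On the right the blue points are HK2, GPI, PFKFB4, ALDOA, ALDOC (at -1.08), TPI1, GAPDH, PGK1, PGAM1, ENO1 and LDHA. There PFKP, PFKM, LDHB, SLC16A3 and PDHB, red on the left, are grey.

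The fall after 33 h lies within the 24 to 45 h arrays, all later than the change of background. Most late set calls were lost under median scaling or without normalization, as given above. The part of differences between these arrays in the fall was not tested. A straight line over those 8 arrays fell in 15 of 30 genes, beside 12.8% of all probes, and rose in 2, beside 12% of all probes. For PGK1 that line was -0.95 over 21 h (SE 0.13, limma adjusted p = 0.000241), for PGAM1 -1.03 (SE 0.13, limma adjusted p = 0.000166) and for ALDOC -1.51 (SE 0.22, limma adjusted p = 0.000259). The early step at 12 h lies within the 0 to 21 h arrays, where a straight line rose in 6 genes, beside 5.79% of all probes, and fell in 3, beside 5.49% of all probes. With each pair of sets fitted on its own 8 arrays, 8 genes were higher at 12 to 21 h, beside 10.8% of all probes, and 15 were lower at 36 to 45 h, beside 15.9% of all probes.

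The surrounding pathway was read from a list of 79 further genes, of which 73 were on the array and 53 were tested. Of the 53, 13 were higher and 14 lower at 12 to 21 h, beside 17.5% and 18% of all probes. At 36 to 45 h 1 was higher and 7 were lower, beside 6.4% and 5.84% of all probes. By group the late falls were 0 of 7 other glucose transporters, 0 of 8 other glycolytic enzymes, 1 of 13 lactate and pyruvate genes, 3 of 5 other pentose genes, 3 of 16 genes of glycogen and hexose side branches and 0 of 4 glucose-responsive regulators. Because 0 of the 53 passed the broken-line test after 33 h, the genes named next were chosen after their values were seen. PRPS1, which makes the phosphoribosyl donor for nucleotides from ribose phosphate, read 9.48 to 9.83 at 24 to 33 h and 9.12, 9.00, 8.87 and 8.73 at 36 to 45 h (-0.68, SE 0.11, limma adjusted p = 0.000560). Its relative PRPS2 (-0.27, SE 0.08, limma adjusted p = 0.0436) and the deoxyribose phosphate aldolase DERA (-0.27, SE 0.08, limma adjusted p = 0.0261) fell with it. BPGM, which draws off a bisphosphoglycerate next to PGK1, was the gene that rose (0.31, SE 0.05, limma adjusted p = 0.00124).

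Early in the course, PCK2, the mitochondrial enzyme that makes phosphoenolpyruvate, fell from 11.33 at 0 h to 9.34 at 12 h and 9.10 at 45 h (change from 0 to 24 h -2.31, SE 0.28, limma adjusted p = 0.000153). C12orf5, the older name of TIGAR, a phosphatase that lowers the activator of phosphofructokinase, fell from 9.51 to 8.49 and 8.17 at these times (-1.26, SE 0.16, limma adjusted p = 0.000185). GPD1L, related to glycerol phosphate dehydrogenase, rose from 8.81 to 9.95 and 10.11 (1.64, SE 0.23, limma adjusted p = 0.000274). TXNIP, which responds to glucose and curbs its uptake, went from 13.26 at 0 h to 15.38 at 3 h and stayed between 14.36 and 15.16 afterwards. With a single untreated array below the rest, TXNIP was not called from 0 to 24 h (0.65, SE 0.37, limma adjusted p = 0.197).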

How the data were processed

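Illumina human Ref-8 v2 beadchips were hybridised with biotinylated cRNA from 16 cultures, and the groups follow the labelled treatment and time. The authors deposited the intensity of each probe without normalization between arrays, and beside it a detection p-value against the negative controls of the same array. Scanner software and background handling were not given in the sources used here. Background was corrected by neqc (limma 3.58.1, R 4.3.3), which inferred the negative controls from these p-values, with offset 16. Quantile normalization, the between-array method of the study, and log2 followed. For the dim probes of HK2 and PFKM the folds were smaller with this correction than with none. Fits used lmFit and eBayes (trend = TRUE), and p-values were adjusted by Benjamini-Hochberg over all 12321 tested probes, with 40.2% of the probes left out as undetected. Fits were tested on simulated data.

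The members, breaks and gene lists were chosen with earlier results of these data known. Full statistics are given for members past the threshold from 0 to 24 h, from 33 to 45 h or in the slope difference, with further genes named as stated. Symbols are those of the array, 31 current and 1 a synonym in RefSeq. Alternatives changed scaling, background correction, filter, probe, array weights, apparent batch, breaks and single arrays. The apparent batch is a split at 24 h read from the background, as no label gives a batch. Precision is limited by the number of arrays, and parallel cultures are not replicates.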

Additional observations from a re-analysis of the deposited data

How the results depend on the processing

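No paired analysis was possible because every hour holds a lone array. Without normalization the median of all probes shifted by -0.27 from 0 to 9 h to 12 to 21 h and by -0.16 from 24 to 33 h to 36 to 45 h. The 7 genes rising from 0 to 24 h became 12 with median scaling, 4 without normalization and 4 with 1 break at 33 h, and 5 to 12 with single arrays left out, 12 without the 0 h array. The 0 genes falling from 33 to 45 h became 2 with array weights, 15 with a line within the 24 to 45 h arrays, 11 with sets of 4 arrays, 10 with 1 break at 24 h and 3 with 1 break at 33 h, and stayed at 0 to 0 with single arrays left out. The 0 genes with the lower late slope became 10 with array weights, 2 with the apparent array batch as a block, 9 with sets of 4 arrays and 11 with 1 break at 24 h, and 0 to 2 with single arrays left out, 2 without the 12 h array and 1 without the 36 h array. The 10 genes changed 1.7-fold became 19 with median scaling, 25 without normalization and 5 at 2-fold, and 9 to 10 with single arrays left out. The 11 genes higher at 12 to 21 h became 7 without normalization and 9 to 12 with single arrays left out. The 11 lower at 36 to 45 h became 4 with median scaling, 5 without normalization and 9 to 11 with single arrays left out. The spline count of 21 ranged from 15 to 21 over the settings and 18 to 23 with single arrays left out. Of the named differences, 1 turned its direction, PGLS at 12 to 21 h under median scaling (0.17). Over the alternatives 298 of 330 values of the 11 genes called from 0 to 24 h, 411 of 442 at 12 to 21 h (17 genes) and 280 of 312 at 36 to 45 h (12 genes) kept direction and call. The cause of these shifts was not tested. Apart from the shares given above, the share of all probes was not counted in these settings. Genes near background, among them HK2, ENO2, SLC2A3 and PFKFB3, showed only small folds in the main run. The late difference of HK2 was -0.09 there. It was -0.37 with background corrected from the signals alone (offset 50) and -0.27 with no background correction.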
